A study of Mus musculus with 6 samples.

Results

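The genes described here encode matricellular and related proteins of the extracellular matrix: Tnc, Postn, Sparc, Thbs1 and Spp1, the structural components Fbn1, Fn1 and Vcan, and the cross-linking enzymes Lox and Loxl1. They are 10 of the 17191 genes in the deposited tables, found by an exact match of their symbols. The 10 genes were chosen by name with the levels and the TP-18 against vehicle differences of these same libraries already known, so that their values in this contrast are a description and support nothing beyond it. All 10 passed the filter on low counts. The deposited annotation places all 10 in the extracellular region and 9 of them, all but Spp1, in the collagen-containing extracellular matrix.

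The libraries came from subcutaneous tumours of CT26, an established mouse colorectal carcinoma line, in female BALB/c mice that were 6 to 8 weeks old. Dosing began at tumour volumes of 100 to 200 mm3. One group of 3 libraries came from mice given TP-18 orally at 50 mg/kg once a day for 3 weeks, and the other group of 3 from mice given vehicle for the same time. All mice carried tumours of the same line, and TP-18 is known here only by its code name. The series design describes sorting for CD11b+F4/80+CD206+ macrophages, whereas the treatment protocol describes magnetic selection for CD11b+ cells and CT26 is the cell line among the sample characteristics. No label states whether the libraries are from separate mice, so the p-values measure only the spread between these libraries, which may be technical. In such bulk RNA, fewer cells of a type and less RNA per cell cannot be told apart.

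Matricellular proteins sit in the matrix without being its main load-bearing fibres and act on cells through integrins and other receptors. Tenascin C, periostin, SPARC and thrombospondin 1 are known for high expression in wounds and in the stroma of tumours. Fibronectin and fibrillin assemble into fibres outside the cell, and lysyl oxidases cross-link collagen and elastin. Activated macrophages are themselves known to make osteopontin (Spp1) and fibronectin, and monocytes to make versican and thrombospondin 1, whereas periostin, fibrillin and the lysyl oxidases are made mainly by fibroblasts and related cells.

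Total counts were 16371128 to 17597645 per library, with 14690 to 15424 genes detected. The sorting antigens were well expressed at the RNA level. Itgam had a mean FPKM of 202.1 in TP-18 and 202.6 in vehicle libraries, Mrc1 155 in TP-18 and 172 in vehicle, and Adgre1 60.7 in TP-18 and 54.2 in vehicle libraries. Libraries of a group were not uniform. Summed FPKM of 7 monocyte markers was 483 in TP-18 2, 718 in vehicle 2 and 375 in vehicle 3, and 81.9 to 117 in the other 3 libraries. Over all 12721 genes tested with edgeR, 3 were higher and 11 lower in TP-18 libraries at an adjusted p under 0.05.

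Among the 10 genes, the levels per length spanned a wide range. Spp1 was the highest on the FPKM scale, at 2035 ± 351 in TP-18 and 1640 ± 627 in vehicle libraries (SD, n = 3 each). Fn1 had the next highest mean, at 509 ± 54.1 in TP-18 and 386 ± 111 in vehicle libraries. Loxl1 had the lowest mean in both groups, at 1.83 ± 0.347 FPKM in TP-18 and 0.607 ± 0.0668 FPKM in vehicle libraries. Between these lay, in falling order of the mean over all libraries, Thbs1, Sparc, Vcan, Tnc, Postn, Lox and Fbn1. Spp1 stood above the other 9 genes in every library. Some neighbours in this order could not be separated. The FPKM ranges of Vcan and Tnc overlapped within each group, and so did those of Postn and Lox and of Lox and Fbn1. Those of Fn1 and Thbs1 and of Tnc and Postn overlapped in the vehicle libraries, and Thbs1 lay above Fn1 in vehicle 2. Thbs1 lay below Sparc in TP-18 1, TP-18 3 and vehicle 1 and above it in the remaining libraries. Lox lay below Loxl1 in TP-18 1, TP-18 3 and vehicle 1.

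**Figure D1:**
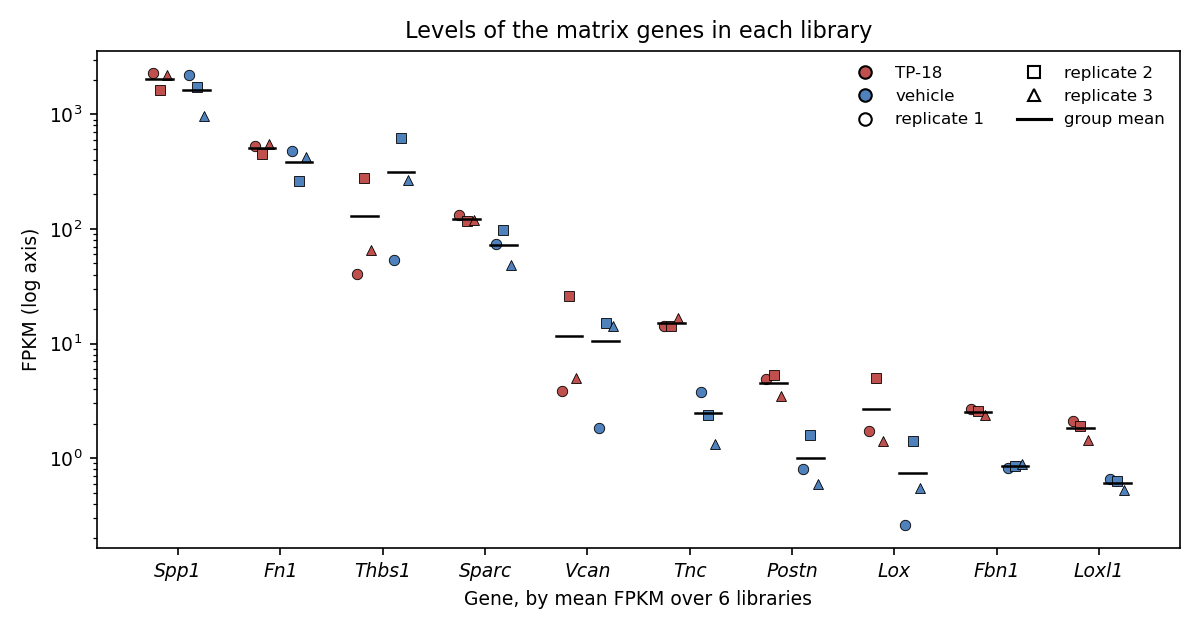
FPKM of the 10 genes on a log axis in the 3 TP-18 libraries (red, left) and the 3 vehicle libraries (blue, right), with the marker shape giving the replicate number and a line at each group mean. Tnc, Postn, Sparc, Fbn1 and Loxl1 have every TP-18 library above every vehicle library, whereas Thbs1 and Vcan spread widely within both groups.

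Tnc, Postn, Fbn1 and Loxl1 had the clearest separation of the groups. On the CPM scale, which sets each count against the scaled size of its library, each had every TP-18 library above every vehicle library, with group means 2.63 to 5.33 times higher. Fbn1 rose at an adjusted p under 0.05 and the others did not pass. That is 1 of 10 genes called, against 0.0236% of all tested genes called in this direction and 0.110% in either direction. Sparc also had groups that did not overlap, which makes 5 of 10 genes, against 11.6% of all tested genes with TP-18 libraries all higher. Because the genes were chosen with this contrast known, nothing is read from these shares.

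Tnc encodes tenascin C, a large hexameric glycoprotein that modulates adhesion to fibronectin. It had 97.7, 97.3 and 113 CPM in TP-18 1, 2 and 3, against 28.6, 18.7 and 10.5 CPM in vehicle 1, 2 and 3. The TP-18 libraries lay close together, and the spread was in the vehicle libraries, where the highest was 2.72 times the lowest. Its log2 fold change was 2.41 ± 0.33 (SE), the largest of the 10, with an edgeR adjusted p = 0.0666. Without vehicle 1 it became 2.79 with an adjusted p = 0.0362, and over all 15 alternatives the adjusted p ran from 4.34e-11 with DESeq2 to 0.238. The call was reached in 4 of these 15.

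Postn encodes periostin, a matrix protein that binds integrins and collagen and helps to activate lysyl oxidase. It had 15.7, 16.9 and 11.1 CPM in TP-18 1, 2 and 3, against 2.83, 5.79 and 2.18 CPM in vehicle 1, 2 and 3. The lowest TP-18 library was above the highest vehicle library, which was vehicle 2. For this gene the log2 fold change was 2.01 ± 0.39 with an edgeR adjusted p = 0.121. DESeq2 was the only alternative that called it, with an adjusted p = 7.00e-05 in a range up to 0.447.

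Fbn1 encodes fibrillin 1, the main component of microfibrils, which scaffold elastic fibres and hold latent TGF-beta. Its counts were 477, 447 and 411 in TP-18 1, 2 and 3, against 141, 147 and 146 in vehicle 1, 2 and 3. These are 25.7, 24.3 and 22.4 CPM in TP-18 libraries and 8.67, 9.25 and 9.66 CPM in vehicle libraries. Libraries of a group hardly differed for this gene: its within-group SD of log2 CPM was 0.0885, lower than in all but 4.55% of tested genes. Its fitted log2 fold change was 1.39 ± 0.16 with an edgeR adjusted p = 0.0428. Leaving out any 1 of the 6 libraries kept the log2 fold change at 1.33 to 1.44 but ended the call, with adjusted p from 0.0808 to 0.238, and the range over all 15 alternatives was 1.27e-08 to 0.238. On GRCm38, Fbn1 lies at 125300594 to 125507993 on the minus strand of chromosome 2, and 2442 of its 12128 exonic bases (20.1%) are shared with exons of Gm9913 on the opposite strand. No source used here says whether counting used strand, so reads in the shared stretch cannot be assigned to either gene with certainty. Gm9913 itself has no value in the deposited counts.

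Loxl1 encodes a lysyl oxidase that cross-links elastin. It had the lowest mean of the 10 per length. Its counts were 125, 111 and 83 in TP-18 1, 2 and 3, against 37, 36 and 29 in vehicle 1, 2 and 3. On the CPM scale these are 6.74, 6.02 and 4.53 in TP-18 libraries and 2.27, 2.26 and 1.92 in vehicle libraries. Every TP-18 library was above every vehicle library, and counting error alone is 18.6% in the library with the fewest counts. For Loxl1 the log2 fold change was 1.42 ± 0.29 (edgeR adjusted p = 0.136), and of the alternatives DESeq2 alone called it, at an adjusted p = 0.00527 in a range up to 0.506.

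Sparc encodes a collagen-binding glycoprotein also called osteonectin. It had 330.3, 293 and 296 CPM in TP-18 1, 2 and 3, against 202, 274 and 139 CPM in vehicle 1, 2 and 3. The groups did not overlap, but vehicle 2 lay just below the lowest TP-18 library. For Sparc the log2 fold change was 0.58 ± 0.24 (edgeR adjusted p = 0.290), and none of the 15 alternatives called it (adjusted p = 0.166 to 0.634).

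Markers of fibroblasts and pericytes also had higher summed FPKM in TP-18 libraries. Summed FPKM of the 17 markers was 397 to 491 in TP-18 and 246 to 388 in vehicle libraries. FPKM rests on library totals, whereas the TMM factors behind the CPM were 1.05 to 1.07 in TP-18 and 0.92 to 0.96 in vehicle libraries. The gap between TP-18 3 and vehicle 2 is narrower than this difference in scaling. On log2 CPM relative to the mean over all libraries, the markers averaged 0.07 in TP-18 3 and -0.002 in vehicle 2. Of the 17 markers, 14 had a positive log2 fold change. Their median was 0.71, against 0.02 over all tested genes. None of the 17 was at 0 and none passed the test (0 called by edgeR, 7 of 17 with groups that did not overlap and TP-18 higher, against 11.6% of all tested genes). The most abundant by FPKM were Col1a2, a chain of type I collagen, with a mean CPM of 994 in TP-18 and 590.1 in vehicle libraries, and Pdpn, podoplanin, with 109.8 CPM in TP-18 and 213 CPM in vehicle libraries. The part of fibroblast content in the values of Tnc, Postn, Fbn1, Loxl1 and Sparc was not tested. Keratins and other epithelial genes were looked at in the same way. Of 10 carcinoma markers with a value, 5 were too low to test, and of the other 5 the log2 fold change was positive for 1, Cdh1, with a median of -0.19 and 0 passed. The groups did not overlap for Cdh1, with TP-18 higher, and for Cdx2, with TP-18 lower, against 11.6% and 11.7% of all tested genes. Krt20 and Krt18 were the most abundant. Krt20 had a mean FPKM of 226 in TP-18 and 211 in vehicle libraries, whereas its log2 fold change with TMM factors was negative.

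Promoter windows of 300 bases, 250 before and 50 after the RefSeq start, were on hand for 6 of the 10 genes, in 9 windows on GRCm38.p6. Those of Tnc, Postn and Fbn1 are shown because the groups were clearly apart for these genes, and that of Spp1 because it is the most abundant and its groups overlapped. Each is read 5′ to 3′ on the gene's own strand. Capitals mark TATAAA, the letters searched for a TATA box, wherever they lie in the window. Both strands were searched, also for TGANTCA for AP-1, GGAATG for TEAD and the CArG box for SRF.
Tnc, minus strand, chr4:64046966-64047265: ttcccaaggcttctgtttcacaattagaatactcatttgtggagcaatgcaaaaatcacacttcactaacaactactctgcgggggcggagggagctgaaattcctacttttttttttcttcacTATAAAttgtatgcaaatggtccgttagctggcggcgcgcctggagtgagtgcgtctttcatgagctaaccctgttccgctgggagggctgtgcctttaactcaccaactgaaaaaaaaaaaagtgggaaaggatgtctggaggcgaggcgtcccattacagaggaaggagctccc
Postn, plus strand, chr3:54360857-54361156: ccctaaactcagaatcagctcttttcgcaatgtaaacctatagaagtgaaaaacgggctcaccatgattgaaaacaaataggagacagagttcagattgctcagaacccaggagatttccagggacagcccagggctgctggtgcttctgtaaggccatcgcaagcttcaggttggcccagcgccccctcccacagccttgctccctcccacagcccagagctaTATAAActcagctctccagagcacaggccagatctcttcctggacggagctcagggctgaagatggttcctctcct
Fbn1, minus strand, chr2:125506389-125506688: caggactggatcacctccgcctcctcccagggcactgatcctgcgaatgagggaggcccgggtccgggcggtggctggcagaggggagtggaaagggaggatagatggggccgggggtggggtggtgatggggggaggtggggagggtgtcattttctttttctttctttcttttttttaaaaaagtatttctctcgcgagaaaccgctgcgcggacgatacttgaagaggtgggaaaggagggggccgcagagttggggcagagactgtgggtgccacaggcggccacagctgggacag
Spp1, plus strand, chr5:104434861-104435160: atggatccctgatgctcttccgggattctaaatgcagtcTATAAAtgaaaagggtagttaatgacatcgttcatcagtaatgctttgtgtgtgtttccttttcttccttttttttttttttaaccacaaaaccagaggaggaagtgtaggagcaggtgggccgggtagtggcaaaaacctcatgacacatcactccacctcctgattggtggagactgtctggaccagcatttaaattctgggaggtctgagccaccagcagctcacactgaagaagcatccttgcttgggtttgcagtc
In Postn the TATAAA begins 26 bases before the annotated start, in Tnc 126 bases and in Spp1 211 bases before it. Tnc has another RefSeq start, and in that window TATAAA begins 205 bases before the start. The window of Fbn1 holds none of the 4 motifs. The RefSeq start of Fbn1 lies 1555 bases from the 5′ end of the gene in GENCODE M21, so the window belongs to 1 of its annotated starts. Among all 32851 RefSeq windows, 13.6% hold TATAAA, 7.81% the AP-1 motif, 14.7% the TEAD motif and 1.63% a CArG box. None of the 9 windows held one of the last 3. A match is only a run of letters, and its absence says nothing about the factor.

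Spp1 and Fn1, the most abundant of the 10 by mean FPKM, had overlapping groups and did not pass the test. Spp1, a secreted phosphoprotein that binds integrins and CD44, had 3472, 2461 and 3295 CPM in TP-18 1, 2 and 3, against 3710, 2960 and 1697 CPM in vehicle 1, 2 and 3. The ranges overlapped, with vehicle 1 the highest and vehicle 3 the lowest of all libraries. For Spp1 the log2 fold change was 0.14 ± 0.28 (edgeR adjusted p = 0.833), and it became -0.13 without vehicle 3. Of the exonic bases of Spp1, 309 (18.8%) are shared with Gm42793 on the same strand, so reads there cannot be assigned with certainty. Gm42793 has no value in the deposited counts. Fn1, which encodes fibronectin, had 4181, 3535 and 4344 CPM in TP-18 1, 2 and 3, against 4136, 2342 and 3845 CPM in vehicle 1, 2 and 3. Vehicle 2 was the low library here, and the other 5 lay between 3535 and 4344 CPM. For Fn1 the log2 fold change was 0.22 ± 0.22 (edgeR adjusted p = 0.640), and it became -0.0029 without vehicle 2. Spp1 took up to 0.366% and Fn1 up to 0.464% of a library's counts, so counting error is under 1% for both and the spread lies between libraries.

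Thbs1, Vcan and Lox varied widely within both groups, and the groups overlapped for each. Their within-group SDs of log2 CPM were 1.64, 1.63 and 1.08, at or above 99.4%, 99.3% and 96.6% of tested genes. Thbs1 encodes thrombospondin 1, a platelet and macrophage product that inhibits angiogenesis and activates latent TGF-beta. It had 225, 1533 and 361 CPM in TP-18 1, 2 and 3, against 328, 3854 and 1696 CPM in vehicle 1, 2 and 3. TP-18 2, vehicle 2 and vehicle 3 were the high libraries, and the lowest vehicle library lay below TP-18 3. The log2 fold change was -1.47 ± 0.94 (edgeR adjusted p = 0.468), and it ran from -2.74 without TP-18 2 to -0.54 without vehicle 2.

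Vcan encodes versican, a large proteoglycan that binds hyaluronan. It had 53.8, 362 and 68.7 CPM in TP-18 1, 2 and 3, against 28.0, 238 and 229 CPM in vehicle 1, 2 and 3. The same 3 libraries, TP-18 2, vehicle 2 and vehicle 3, were the high ones. The log2 fold change was -0.03 ± 0.90 (edgeR adjusted p = 0.994), and its sign turned with library totals as scaling (0.16). It was -1.43 without TP-18 2 and 0.39 without TP-18 1.

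Lox encodes lysyl oxidase, which starts the cross-linking of collagen and elastin. Its counts were low, at 139, 391 and 110 in TP-18 1, 2 and 3, against 20, 110 and 41 in vehicle 1, 2 and 3. On the CPM scale these are 7.49, 21.2 and 6.01 in TP-18 libraries and 1.23, 6.92 and 2.71 in vehicle libraries. TP-18 2 was the highest library and vehicle 1 the lowest, and vehicle 2 lay above TP-18 3, so the groups overlapped. The log2 fold change was 1.67 ± 0.69 (edgeR adjusted p = 0.294). It ran from 0.90 without TP-18 2 to 2.53 without vehicle 2 and passed in none of the 15 alternatives.

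Several marker lists differed between the libraries along with Thbs1 and Vcan. Relative to the mean over all libraries, the 7 monocyte markers averaged -0.60, 0.80 and -0.30 on the log2 scale in TP-18 1, 2 and 3, and -1.25, 1.17 and 0.18 in vehicle 1, 2 and 3. On the same scale Thbs1 was at -1.84, 0.93 and -1.15 in TP-18 1, 2 and 3, and at -1.29, 2.26 and 1.08 in vehicle 1, 2 and 3. TP-18 2, vehicle 2 and vehicle 3 were thus the libraries above the mean for Thbs1, for Vcan and for the monocyte list. Summed FPKM of the monocyte list was 112 to 483 in TP-18 and 81.9 to 718 in vehicle libraries. Its most abundant genes were Chil3, a chitinase-like protein of monocytes and macrophages, and F13a1, a subunit of coagulation factor XIII. Chil3 had 19.8, 323 and 17.9 CPM in TP-18 1, 2 and 3, against 8.91, 758 and 258 CPM in vehicle 1, 2 and 3. F13a1 had 199, 727 and 105 CPM in TP-18 1, 2 and 3, against 213, 672 and 873 CPM in vehicle 1, 2 and 3. Of these 7 genes none was at 0 in all libraries and 0 passed the edgeR test.

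Platelets carry thrombospondin 1 in their granules. Of 9 platelet and megakaryocyte markers in the tables, Gp1ba, Gp9, Gp6 and Tubb1 were too low to test. The list's summed FPKM was 115 to 388 in TP-18 and 114 to 939 in vehicle libraries and was led by Pf4, a chemokine gene that macrophages also express, and Ppbp. Pf4 had 61.7, 208 and 61.0 CPM in TP-18 1, 2 and 3, against 67.1, 571 and 203 CPM in vehicle 1, 2 and 3. Summed FPKM of 9 neutrophil markers, led by S100a8 and S100a9, was 58.8 to 227 in TP-18 and 36.4 to 295 in vehicle libraries, highest in vehicle 2 and TP-18 2. The 12 endothelial markers, led by Plvap and Pecam1, had the same 2 libraries highest by their mean on the centred log2 scale, at 0.94 in TP-18 2 and 0.96 in vehicle 2, and vehicle 1 lowest at -1.76, and these were also the lowest and 2 of the 3 highest libraries for Lox. The log2 fold change was positive for all 12 (median 0.59), and 0 passed. The groups did not overlap for 1 of the 12, with TP-18 higher, against 11.6% of all tested genes. Summed FPKM of the endothelial list was 42.0 to 82.5 in TP-18 and 11.6 to 80.1 in vehicle libraries. The part of these cell types in the values of the 10 genes was not tested. Summed FPKM of 11 macrophage markers, led by C1qa and C1qb, overlapped, at 2358 to 4108 in TP-18 and 1794 to 4273 in vehicle libraries.

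The other marker lists were low. Mast cell markers, led by Gata2 and Tpsb2, summed to 13.9 to 37.2 FPKM in TP-18 and 8.75 to 13.4 FPKM in vehicle libraries. The groups lay just apart on this scale, which rests on library totals, and the order of TP-18 3 and vehicle 2 depends on that scaling. On the centred log2 CPM scale the means of the tested markers did not overlap, with 0.38 the lowest in TP-18 and -0.47 the highest in vehicle libraries. Of the 6 tested 5 were positive with a median of 2.62 and 0 passed. The groups did not overlap for 4 of the 6, with TP-18 higher, against 11.6% of all tested genes. The part of these cells in the values of the 10 genes was not tested. Lymphocyte markers, led by Cd3e and Nkg7, summed to 2.85 to 12.1 FPKM in TP-18 and 3.36 to 12.3 FPKM in vehicle libraries. Dendritic cell markers, led by Ccr7 and Zbtb46, summed to 0.980 to 1.99 FPKM in TP-18 and 1.58 to 2.90 FPKM in vehicle libraries. On the centred log2 CPM scale the means of the 3 tested did not overlap, with -0.42 the highest in TP-18 and -0.04 the lowest in vehicle libraries. Of these 3, 0 had a positive log2 fold change (median -1.17) and 0 passed. The groups did not overlap for 1 of them, with TP-18 lower, against 11.7% of all tested genes. Markers of muscle, skin and fat, led by Acta1 and Ckm, summed to 3.84 to 19.9 FPKM in TP-18 and 14.7 to 26.6 FPKM in vehicle libraries.

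**Figure D2:**
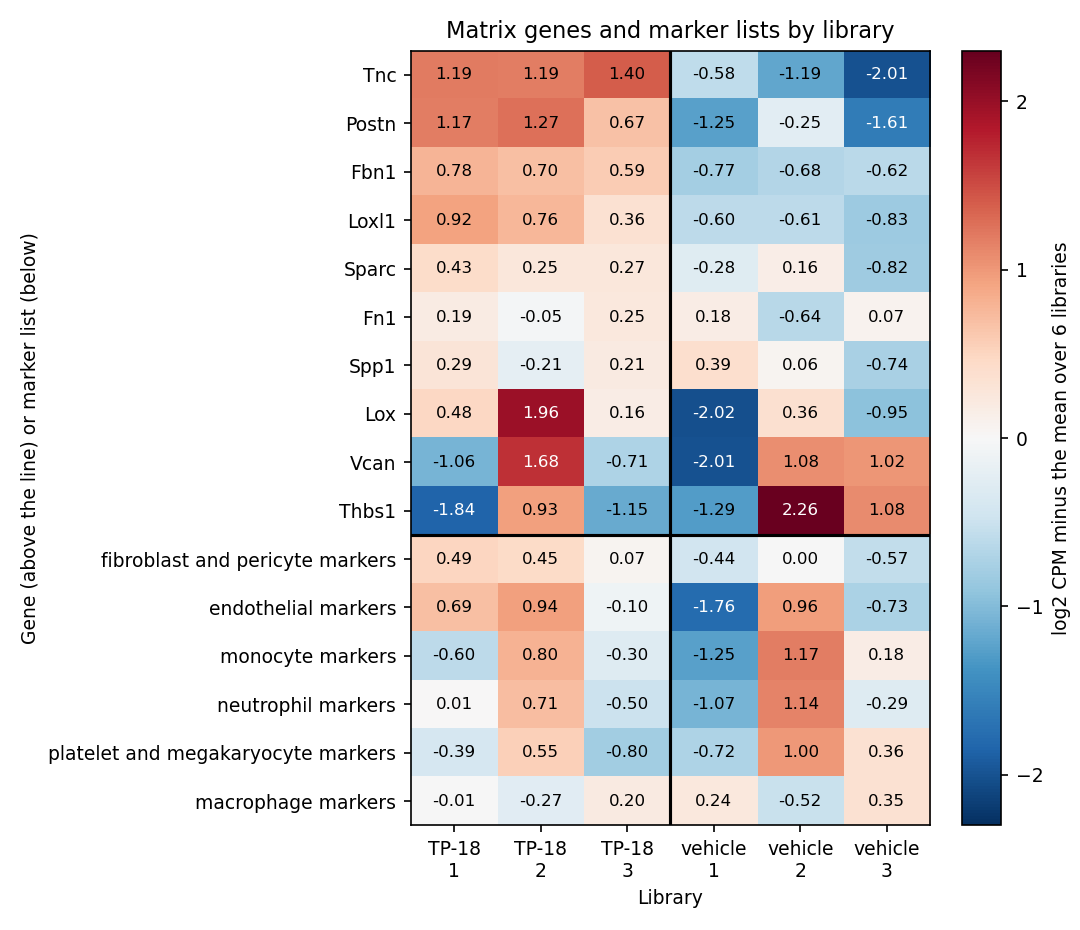
Log2 CPM minus the mean over the 6 libraries for each of the 10 genes, above the line, and the mean of the same quantity over the tested genes of 6 marker lists, below it, with TP-18 libraries in the left columns and vehicle libraries in the right ones. Tnc, Postn, Fbn1 and Loxl1 change colour at the border between the groups, whereas Thbs1 and Vcan are above their means in TP-18 2, vehicle 2 and vehicle 3, as the monocyte markers are.

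Across the 10 genes, log2 fold changes ranged from -1.47 to 2.41, with 8 positive and a median of 0.99. Over all tested genes the median was 0.02 and 52.6% were positive. With library totals in place of TMM factors the median of all genes moved to 0.20, and among the 10 genes only Vcan changed sign under that scaling.

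**Figure D3:**
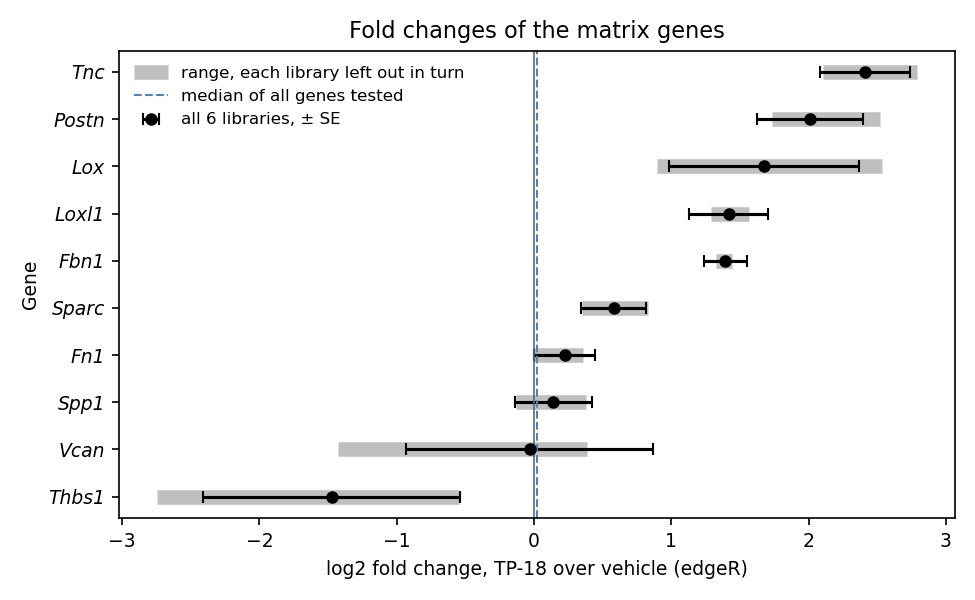
Log2 fold change of TP-18 over vehicle for each of the 10 genes from edgeR, with its SE (n = 3 libraries per group), over a grey band that spans the values with each library left out in turn. Fbn1 has the narrowest band, from 1.33 to 1.44, and those of Spp1, Fn1 and Vcan cross 0.

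The genes most like each of the 10 were taken as those with the smallest root mean square difference in centred log2 CPM over the 6 libraries. This distance includes the difference between the groups, so close genes share that difference by construction. It also tends to be small for genes that vary little. Shared regulation of close genes was not tested. For Tnc the closest were Col1a1, which encodes a collagen I chain (0.36), Sulf1, a heparan sulfate sulfatase (0.43), and Cel, a lipase (0.45). For Postn they were Rab3a (0.21), Adamts2, a procollagen protease (0.24), and Col5a2, a collagen V chain (0.24). For Fbn1 they were Kdr, a VEGF receptor (0.14), Loxl1 (0.16) and Trim69 (0.17), and for Loxl1 they were LOC118567479 (0.14), Fbn1 (0.16) and Rnf122 (0.17). The distance between Fbn1 and Loxl1 was the smallest of any pair among the 10. For Sparc they were Cracr2b (0.096), Fbln5, an elastic fibre protein (0.12), and Cep19 (0.12), and for Lox they were Klhl3 (0.24), Svep1 (0.25) and Zfp366 (0.28). For Thbs1 they were Il1r2, the decoy receptor of interleukin-1 (0.31), Mcemp1 (0.37) and Cd24a (0.38). For Vcan they were Tmem154 (0.25), Serpinb10 (0.34) and Pkd2l1 (0.40). Spp1 was closest to Josd2 (0.081), Mrc2 (0.081) and Txnrd2 (0.088), and Fn1 to Fat1 (0.061) and Zfp385a (0.066). The largest distance within the 10 was between Tnc and Thbs1, at 2.51.

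Other matricellular genes were looked at as a list of 21, of which 16 were tested and 0 passed (2 at an unadjusted p under 0.05). The log2 fold change was positive for 13 of them (median 0.35). This median ran from 0.080 without vehicle 1 to 0.54 without TP-18 3, and was 0.090 without TP-18 2. The most abundant were Ccn1, an integrin-binding growth regulator, and Ecm1, extracellular matrix protein 1. Ccn1 had 779.9, 655 and 731 CPM in TP-18 1, 2 and 3, against 534, 851 and 441 CPM in vehicle 1, 2 and 3, and the groups overlapped. Ecm1 had 215, 367 and 205 CPM in TP-18 1, 2 and 3, against 347, 674 and 1095 CPM in vehicle 1, 2 and 3. Its log2 fold change was -1.43 ± 0.42 (edgeR adjusted p = 0.208). Among paralogs of the 10 genes, picked after their values were seen, Tnn, the tenascin N gene, had 11.9, 17.6 and 4.53 CPM in TP-18 1, 2 and 3, against 3.63, 1.70 and 1.39 CPM in vehicle 1, 2 and 3, and did not pass. Of the other tenascin genes, Tnxb had a log2 fold change of 0.04 and Tnr one of 0.60. Thbs2, a thrombospondin, had 409, 644 and 262 CPM in TP-18 1, 2 and 3, against 339, 298 and 243 CPM in vehicle 1, 2 and 3, without the high values of Thbs1 in vehicle 2 and vehicle 3. The periostin paralog Tgfbi had a mean FPKM of 271 in TP-18 and 168 in vehicle libraries, with a log2 fold change of 0.52 ± 0.41.

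Of 16 further genes of elastic fibres and microfibrils, 13 were tested, 10 had positive log2 fold changes and 0 passed (3 at an unadjusted p under 0.05). Their median was 0.37, and it ran from 0.23 without vehicle 3 to 0.54 without vehicle 2. Emilin2 and Ltbp4, the most abundant, had log2 fold changes of -0.30 ± 0.24 and 0.01 ± 0.20. In 3 of the 13 genes, named after their values were seen, the groups did not overlap and TP-18 was higher, against 11.6% of all tested genes. These were Ltbp2, a latent TGF-beta binding protein at a mean of 7.87 CPM in TP-18 and 2.84 CPM in vehicle libraries, Emilin1 at 37.0 CPM in TP-18 and 18.5 CPM in vehicle libraries, and Fbln2 at 184 CPM in TP-18 and 133 CPM in vehicle libraries. Fbn2, the closest relative of Fbn1 in this list, was too low to test. For the other lysyl oxidases and the proteins that process them, 7 of 9 were tested, the log2 fold change was positive for all 7 (median 0.12), and 0 passed (1 at an unadjusted p under 0.05). That median ran from 0.054 without TP-18 2 to 0.28 without vehicle 2. Pcolce, an enhancer of procollagen processing, had a mean FPKM of 193 in TP-18 and 157 in vehicle libraries. With TMM factors its log2 fold change was 0.12 ± 0.20. Loxl3 had a mean FPKM of 28.0 in TP-18 and 19.7 in vehicle libraries, with a log2 fold change of 0.33 ± 0.34. Both Pcolce and Loxl3 had overlapping groups. Loxl2, named after its values were seen, was the 1 gene in this list whose groups did not overlap, with 6.90, 11.9 and 5.19 CPM in TP-18 1, 2 and 3, against 2.09, 3.08 and 1.65 CPM in vehicle 1, 2 and 3. Over all tested genes that share was 11.6% with TP-18 higher.

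Of the 14 enzymes and partners of versican and hyaluronan, 11 were tested, the log2 fold change was positive for 7 (median 0.40), and 0 passed (2 at an unadjusted p under 0.05). The sign of this median rested on single libraries: it was -0.090 without TP-18 2, -0.059 without vehicle 1 and 0.61 without TP-18 3. Adamts1, a protease that cleaves versican, had 184, 222 and 129 CPM in TP-18 1, 2 and 3, against 213, 270.01 and 258 CPM in vehicle 1, 2 and 3. Tnfaip6, a hyaluronan-binding protein, had 6.31, 12.2 and 4.204 CPM in TP-18 1, 2 and 3, against 7.38, 13.3 and 12.6 CPM in vehicle 1, 2 and 3. Has1, a hyaluronan synthase, was singled out after its values were seen: it had 7.22, 4.40 and 6.39 CPM in TP-18 1, 2 and 3, against 15.2, 16.9 and 11.5 CPM in vehicle 1, 2 and 3. Every TP-18 library was below every vehicle library, and it did not pass (edgeR adjusted p = 0.136). The groups also did not overlap for Cemip, a hyaluronan-degrading protein, with TP-18 higher, but it had only 13, 16 and 22 counts in TP-18 1, 2 and 3, against 0, 7 and 0 counts in vehicle 1, 2 and 3, and did not pass (edgeR adjusted p = 0.294).

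The log2 fold changes for cell surface receptors of these proteins had no common direction. Summed FPKM of the receptor list was lower in every TP-18 library, at 858 to 1022, against 1076 to 1191 in vehicle libraries. Of 19 receptor genes, 18 were tested, the log2 fold change was positive for 8 (median -0.05), and 0 passed (3 at an unadjusted p under 0.05). Their median became 0.13 when libraries were scaled by their totals, while that of all tested genes became 0.20. With 1 library left out, the receptor median ran from -0.10 without vehicle 1 to 0.018 without TP-18 1. Sdc4, a syndecan that binds fibronectin, had 635, 559 and 439 CPM in TP-18 1, 2 and 3, against 743.5, 816 and 850.4 CPM in vehicle 1, 2 and 3. Itgb1, the shared beta chain of many matrix integrins, had 827, 735 and 896 CPM in TP-18 1, 2 and 3, against 840.4, 867 and 814 CPM in vehicle 1, 2 and 3. Sdc4, Itga5 and Cd44 were the 3 receptor genes whose groups did not overlap, all with TP-18 lower, against 11.7% of all tested genes in this direction, and Itga5 and Cd44 were picked for naming after the values were seen. Itga5, the alpha chain of the classical fibronectin receptor, had 461, 412 and 375 CPM in TP-18 1, 2 and 3, against 814, 927 and 755 CPM in vehicle 1, 2 and 3. Its log2 fold change was -0.9997 ± 0.15 (edgeR adjusted p = 0.0756). Cd44, a receptor for hyaluronan and osteopontin, had 766, 604 and 969 CPM in TP-18 1, 2 and 3, against 1212, 1316 and 1198 CPM in vehicle 1, 2 and 3. Its log2 fold change was -0.67 ± 0.19 (edgeR adjusted p = 0.198).

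Regulators known to act on matrix genes, those of TGF-beta, SRF and YAP signalling, were all 18 tested, with 7 positive, a median of -0.07 and 0 passed (3 at an unadjusted p under 0.05). Tgfb1, the ligand, had 103, 111 and 148 CPM in TP-18 1, 2 and 3, against 136, 122 and 157 CPM in vehicle 1, 2 and 3. Wwtr1, which encodes TAZ, a coactivator of TEAD factors, had 172, 142 and 179 CPM in TP-18 1, 2 and 3, against 186, 182 and 159 CPM in vehicle 1, 2 and 3. The groups overlapped for both. They did not overlap for 5 of the 18, named after their values were seen: Tgfbr2, a TGF-beta receptor, the SRF coactivator Mrtfb, and Tead1 and Tead4, partners of TAZ, had TP-18 higher, and Srf had TP-18 lower. That is 4 of 18 higher and 1 lower, against 11.6% and 11.7% of all tested genes, and nothing is read from these counts. Mrtfb had 37.9, 44.6 and 39.5 CPM in TP-18 1, 2 and 3, against 27.6, 23.0 and 29.9 CPM in vehicle 1, 2 and 3. Srf had 119, 106 and 101 CPM in TP-18 1, 2 and 3, against 134, 176 and 163 CPM in vehicle 1, 2 and 3. The median of this list was 0.11 with library totals as scaling, against 0.20 over all tested genes.

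**Figure D4:**
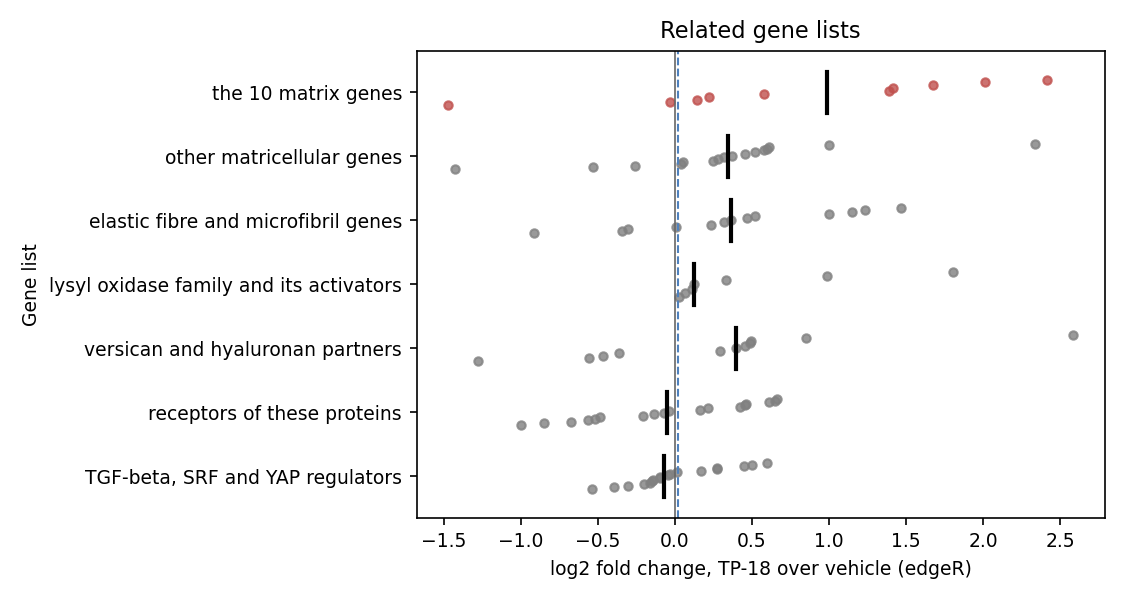
Log2 fold change of TP-18 over vehicle for each tested gene (points), with the median of each list as a black bar and the median of all tested genes, 0.02, as a dashed line. The 10 genes (red) have a median of 0.99, and the related lists have medians from -0.07 to 0.40.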

How the data were processed

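RNA was profiled by sequencing in 3 TP-18 and 3 vehicle libraries. Raw counts and FPKM of 17191 genes, as the authors deposited them, were the starting point. The build was GRCm38 and the tools named were fastp, HISAT2 and HTSeq, per the submitters' processing notes. Their versions and settings, the annotation and any use of strand are not given there. Each deposited FPKM equals the count divided by the library total and by 1 length per gene, checked on the 16135 genes with counts in at least 2 libraries.

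The test on the deposited counts was that of edgeR 4.0.16 (R 4.3.3): filterByExpr (minimum count 10, minimum total 15), TMM factors, the quasi-likelihood test of TP-18 against vehicle without covariates, and Benjamini-Hochberg adjustment over all 12721 tested genes. The pipeline was tested on simulated data. CPM uses TMM-scaled sizes of the filtered libraries, and the SE is the log2 fold change over the root of F. Alternatives were RLE factors, library totals, DESeq2 1.42.0, limma 3.58.1 (voom, and with pseudocounts of 1 and 0.1 on log2 FPKM), a looser and a stricter filter, the replicate number as a block, and each library left out. Named besides the 10 genes were the 3 closest genes to each (1 of them is not reported here) and the 2 most abundant of each list, since none passed; other names were chosen after their values were seen. The 10 genes and the lists were chosen with earlier results of these data known. Positions come from GENCODE M21 and promoter sequences from RefSeq (GRCm38.p6). Marker genes without a row in these tables were not analysed here. Figures were drawn with matplotlib 3.10.9.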

Additional observations from a re-analysis of the deposited data

How the results depend on the processing

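With all 6 libraries the edgeR test called 14 genes, 3 higher and 11 lower, and 1 of the 10 matrix genes. RLE factors and the filter of CPM 1 in 3 libraries kept these counts. Library totals as scaling gave 4 genes, 3 higher and 1 lower, with medians of 0.13 for receptors and 0.11 for the TGF-beta, SRF and YAP list. The median of all tested genes was 0.20 with that scaling. DESeq2 called 499 genes, 160 higher and 339 lower, with 4 of the 10 among them. Limma-voom called 2 of the 10. Without a filter 27 genes were called, 7 higher and 20 lower, with 2 of the 10. Limma on log2(FPKM + 1) called 2 genes, 1 in each direction, and 0 of the 10, with medians of 0.11 for receptors, 0.10 for the regulators and 0.15 for all tested genes. On log2(FPKM + 0.1) it called 2 genes, 1 in each direction, and 0 of the 10, with medians of 0.12 for receptors, 0.11 for the regulators, 0.565 for elastic fibre genes and 0.20 for all tested genes. Leaving out 1 library gave 0 to 8 genes, 0 to 3 higher and 0 to 5 lower, and 0 to 1 of the 10. List medians then ran from -0.12 to 0.076 for the regulators, -0.10 to 0.018 for receptors, -0.090 to 0.61 for versican and hyaluronan partners, 0.080 to 0.54 for other matricellular genes, 0.054 to 0.28 for the lysyl oxidase family and 0.23 to 0.54 for elastic fibre genes.

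No label states that libraries of the same replicate number are pairs. Deviations from the group mean correlated at 0.16, 0.39 and -0.15 for numbers 1, 2 and 3. TP-18 2 correlated best with vehicle 2, but TP-18 3 correlated best with vehicle 1, so these values do not settle pairing. With a replicate block 3 genes were called, 3 higher and 0 lower, and 0 of the 10. The edgeR adjusted p then fell to 0.160 for Thbs1 and 0.134 for Lox, and rose to 0.0990 for Fbn1. Tnc, Postn, Sparc, Thbs1, Fbn1, Lox and Loxl1 kept their sign under all 15 alternatives. Vcan turned to 0.16 with library totals, 0.059 and 0.11 on the FPKM scales with pseudocounts of 1 and 0.1, and ran from -1.43 to 0.39 with 1 library left out. Fn1 ran from -0.0029 to 0.35 and Spp1 from -0.13 to 0.38 with 1 library left out. The cause of these changes was not tested. Counting error bears most on Lox, with 20 counts in vehicle 1, and on Loxl1.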
